A study of Mus musculus with 18 samples.

Results

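Cytosolic ribosomal protein genes were taken by symbol: every row of the deposited tables named Rps or Rpl followed by a digit, together with Rplp0, Rplp1, Rplp2 and Rpsa, without symbols holding -ps and without the kinases named Rps6k. The rule found 88 genes of 22049. They comprised 31 small-subunit proteins, 43 large-subunit proteins, 3 proteins of the stalk (Rplp0, Rplp1 and Rplp2), 10 paralogs or copies (Rpl22l1, Rpl36al, Rps27l, Rps3a2, Rpl7l1, Rps3a3, Rpl39l, Rpl10l, Rpl3l and Rps4y2) and Rps19bp1, which binds a ribosomal protein but is no subunit. The rule left out 25 rows named -ps, which held 0.587 UMIs (unique molecular identifiers, 1 per captured transcript) for every 100 of the 88 genes, and 10 kinase rows. Of the 88 genes, 87 matched the GENCODE M21 annotation of GRCm38 by symbol, and Rps4y2 did not. That annotation calls Rps3a2 and Rps3a3 processed pseudogenes and gives them and Rpl10l a single exon, so reads of these genes and of their near-identical partners Rps3a1 and Rpl10 may have been split between copies by the authors' counting.

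The cells came from lungs, spleens and implanted biomaterial scaffolds, porous implants that host cells enter, of female BALB/cJ mice, and were read by Drop-seq, which pairs single cells with barcoded beads in droplets. Tumour-bearing mice had 2000000 4T1-tdTomato-luc2 cells, a marked line of the 4T1 mouse mammary carcinoma, placed in the fourth right mammary fat pad, while healthy mice of the same days had none. Tissues were taken at days 7, 14 and 21 from mice of 9, 10 and 11 weeks. Each tissue, status and day gave 1 library, 18 in all, so each of the 6 tissue and status groups held 3 libraries that differ in day. How many animals went into a library is not stated in the labels, and every p below measures the spread between libraries, which may in part be technical.

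Ribosomal proteins form, with ribosomal RNA, the small and large subunits that translate messenger RNA. Their own messenger RNAs belong to the class that begins with a run of pyrimidines at the cap (5′ TOP messages), and growth signals through mTORC1 set how strongly that class is translated. Lymphocytes are known for a high fraction of such messages, and neutrophils shut down much of their ribosome production as they mature in the marrow.

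Windows of 30 bases, 15 on each side of the start given by RefSeq (GRCm38.p6), were searched for an unbroken run of 8 or more bases that are C or T, because that run is the feature the 5′ TOP class is named for. Of the 88 genes, 65 had an entry in the RefSeq promoter table, with 77 windows among them. The run stood on the sense strand in 28 of the 77 windows, 36.4%, against 12.0% of all 32851 windows of that length. On the antisense strand it stood in 3.90% of the windows of the ribosomal protein genes and in 13.2% of all windows. The hexamer CTTTCC, which overlaps such runs, stood in 13.0% of these windows and in 1.42% of all on the sense strand. For CTCTTT the sense shares were 10.4% and 1.13%, and for CTTTTC they were 6.49% and 1.06%. A selection of windows is shown 5′ to 3′, with the longest run in capitals where there is one of 8 or more.
Rps24 (small subunit, chr14:24490663-24490692, plus strand): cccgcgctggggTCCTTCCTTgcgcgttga
Rps27 (small subunit, chr3:90213634-90213663, minus strand): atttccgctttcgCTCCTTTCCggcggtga
Rps27l (its paralog, chr9:66946071-66946100, plus strand): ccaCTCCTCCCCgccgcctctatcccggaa
Rplp2 (stalk, chr7:141447636-141447665, plus strand): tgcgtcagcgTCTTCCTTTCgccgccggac
Rpl35 (large subunit, chr2:39005117-39005146, minus strand): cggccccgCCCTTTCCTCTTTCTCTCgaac
Rpl39l (paralog of Rpl39, chr16:10170213-10170242, plus strand): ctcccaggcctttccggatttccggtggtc
Rpl10l (paralog of Rpl10, chr12:66284387-66284416, minus strand): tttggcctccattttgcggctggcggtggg
The first 5 windows hold a run of 9 to 18 bases, and the last 2, of paralogs treated below, hold none of 8. This selection does not stand for the set, in which 28 of 77 windows hold a run. The windows of Rpl5, Rpl36al, Rplp0, Rps19bp1 and Rpl26, also named below, hold none of 8. The same is true of a further window each of Rps24 and Rps27l. A match or its absence describes the letters in this window only, since the starts are those of the annotation and were not measured here.

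The 26397 barcodes of the 18 tables carried 39064142 UMIs, and library totals ran from 292765 to 4530115. Cells with 200 or more genes and under 20% mitochondrial UMIs were kept, 24536 in all, and the 88 genes took 10.6% of their UMIs. At day 21, 1046 of 7545 distinct barcodes occurred in 2 or more of the 6 libraries. The counts were 103 of 8932 at day 14 and 279 of 5684 at day 7. Of the cells of day 21, 4099 carried such a shared barcode, among them 794 of 1029 cells of healthy lung and 485 of 511 cells of healthy spleen. These libraries were also the shallowest, with medians of 420 and 383 UMIs per kept cell, so results that rest on them are given with and without them. Leaving them out does not remove all shared barcodes. Such barcodes made up 47.3% of those of healthy scaffold at day 21, and 32.6% and 26.9% of those of healthy spleen and healthy lung at day 7. No doublets were removed.

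Lineages were set by 1 marker each. A cell was called neutrophil when S100a8, a calcium-binding protein abundant in neutrophils, made up at least 1% of its UMIs and no UMI of C1qa, Cd79a or Cd3e was found. Of the remaining cells, those with a UMI of exactly 1 of Ccr2, C1qa, Cd79a and Cd3e were called monocyte, macrophage, B cell and T cell. This gave 6787 neutrophil, 2321 monocyte, 1847 macrophage, 1732 B and 765 T cells, and 11084 cells without a lineage. The names were checked against other markers: 6 of 6 neutrophil, 6 of 6 macrophage, 5 of 5 B cell, 6 of 6 T cell and 4 of 5 monocyte genes outside the rule were highest in their own lineage. S100a8 was not confined to neutrophils: at least 1 of its UMIs was found in 38.2% of monocytes, 37.9% of T cells, 31.5% of B cells and 24.3% of macrophages (medians of 1263, 885, 824.5 and 1255 UMIs per cell). Its summed level there was 871, 797, 665 and 224 UMIs per 1000000 (CPM), against 92373 in the neutrophil lineage. The monocyte lineage, set by Ccr2 alone, also had the highest summed levels of genes of some other cells. These were natural killer (349 CPM), plasmacytoid dendritic (277), basophil (40.6) and dendritic (39.3) genes, against 2727 for its own list. Other lineages also held such genes. Erythroid genes were highest in T cells (1456 CPM, against 3862 for the T cell list) and alveolar macrophage genes in neutrophils (528). Fibroblast genes were highest in macrophages (362) and endothelial genes in B cells (190). The part of such cells in the comparisons below was not tested.

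By the lineage rule above, the share of UMIs taken by ribosomal protein genes was highest in T cells and lowest in neutrophils. In T cells it ranged over the 10 libraries with 20 or more such cells from 17.1% to 26.5%, and its mean was 22.7% ± 2.80 (SD, n = 10). In B cells it ranged from 15.9% to 21.9% with a median of 18.7% (mean 18.6% ± 2.16, SD, n = 9). In monocytes it ranged from 9.67% to 19.8% with a median of 12.4% (mean 12.9% ± 2.70, SD, n = 16). B cells and T cells overlapped in range, yet in each of the 9 libraries that held both the T cell share was the higher. Macrophages ranged from 6.96% to 11.2% with a median of 9.13% (mean 8.90% ± 1.28, SD, n = 14), and neutrophils from 1.32% to 12.6% with a median of 3.35% (mean 4.79% ± 3.43, SD, n = 17). Within libraries, B cells stood above monocytes in 8 of 8, monocytes above macrophages in 12 of 12, monocytes above neutrophils in 15 of 16 and macrophages above neutrophils in 10 of 13. As a share over the members has no test here, neighbours in this order are given by these counts alone.

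**Figure D1:**
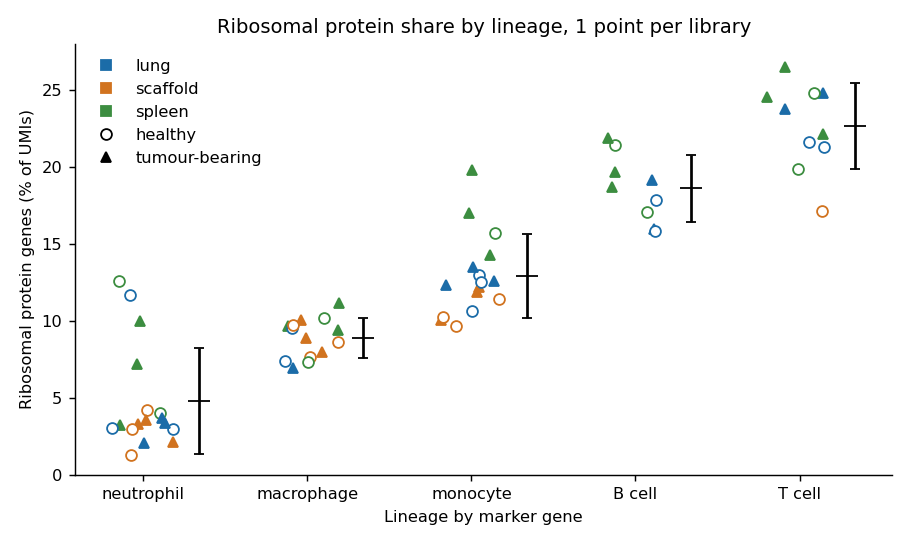
Percentage of UMIs from the 88 ribosomal protein genes (y axis) in each lineage (x axis), 1 point per library with 20 or more cells of that lineage; colour gives the tissue, open circles healthy and filled triangles tumour-bearing mice, and the bar gives the mean ± SD. T cells lie between 17.1% and 26.5%, and 13 of the 17 neutrophil points lie under 5%, with the other 4 from spleen or from healthy lung at day 21.

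S100a8 and S100a9 take a large part of the UMIs of a neutrophil, so the share was also taken without them and without mitochondrial genes. It then came to 6.18% ± 4.49 in neutrophils (SD, n = 17), 9.64% ± 1.49 in macrophages (SD, n = 14), 14.1% ± 2.85 in monocytes (SD, n = 16), 20.9% ± 2.15 in B cells (SD, n = 9) and 25.3% ± 3.05 in T cells (SD, n = 10), in the same order. Without the healthy lung and spleen libraries of day 21 the neutrophil mean was 3.81% ± 2.16 (SD, n = 15) over all UMIs, and 4.92% ± 2.94 (SD, n = 15) when S100a8, S100a9 and mitochondrial genes were left out too. The neutrophil value depended on the amount of S100a8 asked for. With any S100a8 UMI and none of the other 4 markers as the rule, 2873 further cells entered, in which S100a8 stood at 1933 CPM and the ribosomal protein share at 13.0%, and the mean over libraries rose to 9.32%. The macrophage mean was then 8.51%, so neutrophils were no longer lowest by the mean over libraries. Over all cells of the lineage the shares were 7.64% in neutrophils and 8.84% in macrophages.

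Most single genes had the same lineages at the ends of the order. Of the 88, 75 had their highest mean level in T cells and 80 their lowest in neutrophils. The same counts over all genes are not given, so these are not read as particular to the members. Rps29, a small-subunit protein with the most UMIs of the set (194925 in kept cells), had a median of 12509 CPM in T cells (range 9075 to 17933), 8439 in B cells (7762 to 14000), 6526 in monocytes (4626 to 9594), 5377 in macrophages (4086 to 12174) and 2457 in neutrophils (692 to 7437). Rps27, a zinc-finger protein of the small subunit, had medians of 8238 in T cells, 6232 in B cells, 2846 in monocytes, 1399 in macrophages and 1209 in neutrophils. Its paralog Rps27l, a target of p53, ran the other way: its median was 83.7 CPM in T cells (range 0 to 228), 147 in B cells (91.5 to 227), 316 in monocytes (116 to 626), 304 in macrophages (178 to 521) and 70.3 in neutrophils (0 to 761). Rps27 was thus higher in lymphocytes and Rps27l higher in monocytes and macrophages, with neutrophils low in both. Over the 66 library and lineage sums, 82 of the members had a mean of 50 CPM or more, and the median of their Spearman correlations with the summed share was 0.928. The lowest were Rps27l at 0.0803, Rps19bp1 at 0.216 and Rpl7l1 at 0.261. These sums share libraries, depth and the lineage differences themselves, and each member is part of the sum, so the values are descriptions.

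Neutrophils and monocytes were compared in 1 model over the 66 sums of 20 or more cells, with the library as a block (edgeR quasi-likelihood test, Benjamini-Hochberg adjustment over 8823 genes, called under 0.05). Of 86 members tested, 81 were lower and 2 higher in neutrophils, while 32.7% of all genes tested were called lower and 23.3% higher. Their median log2 fold change was -1.34, against -0.21 over all genes. By role, 30 of 31 small-subunit genes, 42 of 43 large-subunit genes, the 3 stalk genes and 5 of 8 paralogs were lower. The exception among small-subunit genes was Rps9, named here after its values were seen, whose median was 2438 CPM in neutrophils and 2822 in monocytes (log2 fold change 0.05 ± 0.19, SE, adjusted p = 0.826, edgeR). By CPM it was lower in neutrophils in 14 of 16 libraries, so its direction rests on the scaling factor.

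Rpl36al, a paralog of Rpl36a, had the largest fall: its level was 0 to 338 CPM in neutrophils (median 53.4) and 349 to 891 in monocytes (median 520), with no overlap in the 16 libraries that held both. Its log2 fold change was -2.13 ± 0.25 (SE, adjusted p = 8.46e-12, edgeR). Rpl5, which with Rpl11 and 5S RNA can bind Mdm2, had medians of 263 and 1352 CPM and a log2 fold change of -1.95 ± 0.25 (SE, adjusted p = 1.21e-10, edgeR), also without overlap in those libraries. Rpl3, a core protein of the peptidyl transferase region, fell by 1.92 on the log2 scale (SE 0.27, adjusted p = 2.51e-09, edgeR) and was lower in 15 of 16 libraries. Its muscle paralog Rpl3l was called higher, with a median of only 12.4 CPM against 8.39, in 11 of 16 libraries (log2 fold change 1.68 ± 0.34, SE, adjusted p = 1.96e-05, edgeR). Rpl24 was called higher as well (0.57 ± 0.23, SE, adjusted p = 0.0293, edgeR), but its CPM was higher in 7 and lower in 8 of 16 libraries. With library totals as the only scaling its fold change was -0.05, so its direction rests on the scaling factor.

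**Figure D2:**
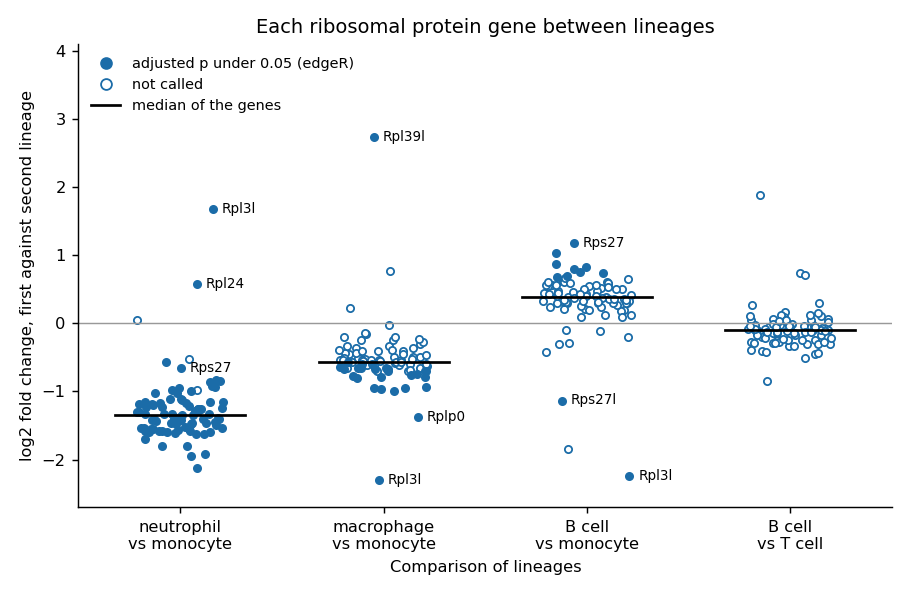
log2 fold change of each tested ribosomal protein gene (y axis) in 4 comparisons of lineages (x axis), 1 point per gene; filled points have an edgeR adjusted p under 0.05, black bars give the medians and the grey line marks no difference. In neutrophils 81 of 86 genes are filled and below the line, in macrophages 25, in B cells against monocytes 9 are filled above it, and none is filled in B cells against T cells.

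Genes of the same pathway moved with them. Of 19 translation factors and other 5′ TOP genes tested, 18 were lower in neutrophils and none higher, with a median log2 fold change of -1.23: Eif3e, a subunit of initiation factor 3, stood at -2.08 ± 0.25 and Eef1a1, the factor that brings aminoacyl-tRNA to the ribosome, at -1.69 ± 0.23 (SE). The exception was Fau, whose product is cleaved to a small-subunit protein (-0.10 ± 0.17, SE, adjusted p = 0.663, edgeR). Of 19 ribosome biogenesis genes, 16 were lower (median -1.53), among them Fbl, the methyltransferase of ribosomal RNA, at -2.26 ± 0.27 (SE). Of 72 mitochondrial ribosomal protein genes, 51 were lower and 2 higher (median -0.92). The cycling genes of the marker list came to 843 CPM in neutrophils and 612 in monocytes, and their part in the result was not tested.

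With library totals alone 83 members were lower, with DESeq2 81, without a filter on low counts 80 and among cells of 400 or more genes 80. With any S100a8 UMI taken as a neutrophil, and S100a8-positive cells left out of the other lineages, 3 members were higher and none lower, and the median was 0.00. That rule changes both lineages, with monocytes going from 2321 to 1435 cells, and which change mattered was not tested. The share over all cells of the lineage was then 7.64% in neutrophils and 11.5% in monocytes.

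Within the neutrophil lineage the share varied with tissue and day. Its SD over libraries was 3.43 percentage points, and 2.16 without healthy lung and spleen of day 21, where monocytes had 2.73. In spleens of tumour-bearing mice it was 3.26% at day 7, 7.21% at day 14 and 10.0% at day 21, from 123, 1267 and 1019 cells. In lungs of tumour-bearing mice it was 2.10%, 3.35% and 3.71%, and in their scaffolds 2.15%, 3.29% and 3.54%. Healthy lung and spleen of day 21, with 37 and 27 neutrophils, had 11.7% and 12.6%. Genes of granule proteins (Elane, Mpo and Prtn3 of primary, and Ltf, Camp and Ngp of secondary granules, chosen after values were seen) varied alongside: their summed level was 25415, 52122 and 44340 CPM in tumour-bearing spleen at days 7, 14 and 21, against 482, 6722 and 9381 in tumour-bearing lung. Over the 17 libraries Spearman's rho between this sum and the ribosomal protein share was 0.902, and 0.889 over the 15 without healthy lung and spleen of day 21. For S100a8, the gene of the lineage rule, rho with the ribosomal protein share was 0.686 and 0.679 over the same libraries. All of these are shares of the same libraries, so the values are descriptions. Neutrophils with a UMI of a cycling gene had the higher ribosomal protein share in 8 of 8 libraries with 10 or more cells of both kinds, by a median of 3.48 percentage points. For monocytes this held in 7 of 9 libraries (median difference 1.29) and for macrophages in 6 of 7 (0.349), whereas in B cells it held in none of 3 (-1.07). Cells with such a UMI were mostly deeper, with medians of 2009 against 788.5 UMIs in neutrophils of tumour-bearing spleen at day 14, and the part of depth was not tested.

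**Figure D3:**
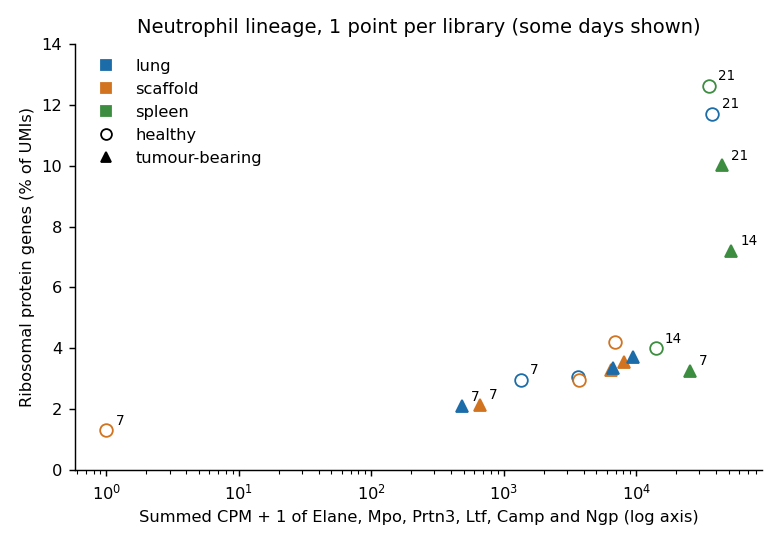
Ribosomal protein share of UMIs in the neutrophil lineage (y axis, percent) against the summed CPM + 1 of 6 granule genes (x axis, log scale), 1 point per library; colour gives the tissue, open circles healthy and triangles tumour-bearing mice, and days are printed beside some points. The 4 libraries over 7%, from spleen and from healthy lung at day 21, have 35243 to 52122 CPM of granule genes.

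In macrophages ribosomal protein genes took a smaller share of UMIs than in monocytes. Over pooled cells the median depth was alike (1255 and 1263 UMIs per cell), but within tissues it was not. In tumour-bearing spleen, library medians were 400 to 573 UMIs in macrophages and 902 to 1430.5 in monocytes. In tumour-bearing scaffolds they were 1966 to 2709 and 1559 to 2163. The part of depth was not tested. Of 86 members tested in the same model, 25 were lower and 1 higher, with 8.58% of all genes called lower and 8.35% higher, and the median log2 fold change was -0.57 against -0.05 over all genes. Rplp0, the scaffold protein of the stalk, ranged from 230 to 750 CPM in macrophages (median 467) and from 772 to 2862 in monocytes (median 1331), without overlap. It fell by 1.37 on the log2 scale (SE 0.27, adjusted p = 6.37e-05, edgeR), and was lower in 12 of 12 libraries. Its partners in the stalk were not called: Rplp1 had medians of 2477 and 2285 CPM and Rplp2 medians of 1277 and 1799. Other members called lower included Rpl23a (-0.997 ± 0.260), Rps18 (-0.96 ± 0.28), Rps6 (-0.95 ± 0.27), the substrate of S6 kinase, and Rps7 (-0.93 ± 0.24; log2 fold change ± SE). The 1 member called higher was Rpl39l (2.73 ± 0.59, SE), with a median of 0 CPM in both lineages and a highest value of 143 CPM in macrophages.

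The macrophage count depended on which cells were kept. With library totals alone 52 were lower, with DESeq2 16, and without the healthy lung and spleen libraries of day 21 34. When only cells of at least 400 genes were used it was 1, and with each shared barcode given to its richest library or to none 0 (median 0.01). Rplp0 stood at -0.48 (adjusted p = 0.415, edgeR) in that last run. The mean share over libraries was still 8.83% in macrophages and 13.2% in monocytes with shared barcodes assigned. It was the same among cells of at least 400 genes. Without the libraries of day 7, 14 or 21, 4, 10 and 5 members were lower.

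In B cells ribosomal protein genes took a larger share of UMIs than in monocytes, at a lower median depth over pooled cells (824.5 against 1263 UMIs per cell). Of 86 members, 9 were higher and 2 lower, with 10.9% of all genes called higher and 16.6% lower, so the count of higher members is near the background, while the median of 0.38 stands beside -0.09 over all genes and 77 of the 86 were above 0. Rps27 had the largest rise, with 5532 to 11340 CPM over all B cell libraries and 1732 to 4006 over all monocyte libraries, and was higher in 8 of 8 libraries (log2 fold change 1.17 ± 0.23, SE, adjusted p = 2.10e-05, edgeR). Rpl12, a protein at the base of the stalk, was higher in 8 of 8 libraries (1.03 ± 0.27, SE, adjusted p = 0.0017, edgeR). Rps24, Rps19, Rps20, Rps7, Rpl36a, Rpl13a and Rps3a2 were the other members called higher, at 0.68 to 0.88 on the log2 scale. Rps19 and Rps24 are among the genes mutated in Diamond-Blackfan anaemia. The 2 lower were the paralogs Rps27l, lower in 8 of 8 libraries (-1.14 ± 0.29, SE, adjusted p = 0.00128, edgeR), and Rpl3l (-2.25 ± 0.77, SE). Of the 19 translation factors and other 5′ TOP genes 2 were higher, Eef1g (0.69 ± 0.25) and Nap1l1 (0.74 ± 0.25, SE), and none was lower.

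The number higher in B cells was 62 with DESeq2, 21 with library totals alone, 17 without the library block and 28 among cells of 400 or more genes. It was 4 with shared barcodes assigned, and 2, 2 and 22 without the libraries of days 7, 14 and 21.

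Between B and T cells no member passed edgeR's threshold in either direction, with 8.38% of all genes called higher and 5.22% lower. At an unadjusted p under 0.05 there were 2 members, and DESeq2 called 9 lower in B cells. Here and below, shares of all genes are those called after adjustment. Counts of members at an unadjusted p have no such share beside them, so they are not read against a background. The median log2 fold change was -0.10, against 0.17 over all genes, and 20 of 86 were above 0. The acidic stalk proteins Rplp1 and Rplp2 were lower in B cells in 9 of 9 libraries, with means of 3065 ± 576 and 4874 ± 677 CPM for Rplp1 and 2551 ± 409 and 3744 ± 492 CPM for Rplp2 (SD, n = 9). Their ranges did not overlap in those libraries, but the fitted difference of Rplp1 was -0.50 ± 0.28 (SE, adjusted p = 0.285, edgeR). Of the translation factors, 1 was higher in B cells, Nap1l1, a histone chaperone with a 5′ TOP message (1.25 ± 0.26, SE).

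In whole libraries the share was lower in the tumour-bearing library in 9 of 9 tissue and day pairs. In lung it was 13.9%, 12.8% and 16.6% in healthy mice at days 7, 14 and 21, and 10.1%, 8.02% and 5.67% in tumour-bearing mice, so the 3 and 3 libraries did not overlap. In scaffolds it was 10.3%, 9.61% and 9.45% against 10.3%, 8.81% and 7.28%, which overlapped. In spleen it was 17.3%, 21.0% and 16.3% against 16.1%, 11.6% and 12.6%, without overlap. In such summed libraries fewer cells of a type and less RNA per cell cannot be told apart. The neutrophil lineage held 45 of 753 kept cells in healthy and 348 of 977 in tumour-bearing lung at day 7, and 37 of 1029 and 2111 of 3387 at day 21.

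Over all cells outside the neutrophil lineage the differences were small or mixed. Tumour minus healthy came to -0.843, 0.0571 and -3.34 percentage points in lung at days 7, 14 and 21, to 0.1, -0.362 and -0.624 in scaffolds, and to 0.155, -3.55 and 2.29 in spleen. In the cells without a lineage alone it was lower with the tumour in all but spleen of day 21. It came to -0.542, -0.715 and -3.55 in lung, to -0.304, -0.869 and -1.75 in scaffolds, and to -0.697, -3.44 and 1.38 in spleen. The day 21 values of lung and spleen rest on the healthy libraries that share most of their barcodes, and the spleen values at day 14 do not.

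**Figure D4:**
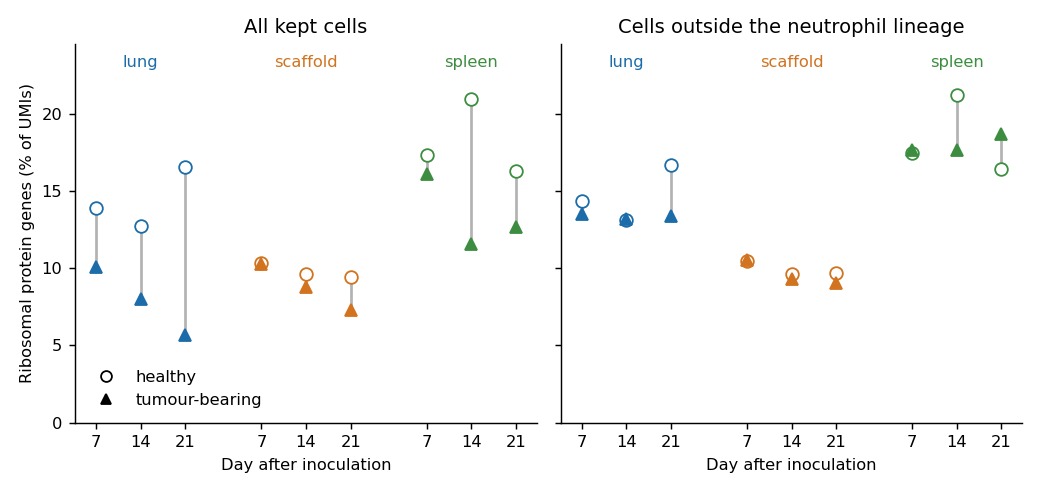
Ribosomal protein share of UMIs (y axis, percent) by tissue and day (x axis), in all kept cells on the left and in cells outside the neutrophil lineage on the right; open circles are healthy and triangles tumour-bearing mice, and lines join libraries of the same tissue and day. On the left each triangle lies at or below its circle, whereas on the right 4 of 9 lie at or above it.

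Gene by gene, few members passed in whole libraries. With the tissue and day as a block over 18 libraries, 3 of 88 members were lower and none higher in tumour-bearing lung, where 2.91% of 11158 genes were called lower and 6.16% higher. The median was -0.64 against -0.22 over all genes, and 83 of 88 were below 0. In scaffolds 1 member was lower (0.0538% of all genes lower, 0.108% higher, median -0.06 against 0.00). In spleen 2 were lower (0.52% lower, 2.79% higher, median -0.17 against -0.03). Those called were Rpl10l in all 3 tissues, Rpl39l and Rps19bp1 in lung and Rpl29 in spleen. Without healthy lung and spleen of day 21 none was called in any tissue, and the lung median was -0.21 against -0.07. With library totals alone 18 were lower in lung, with DESeq2 10.

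Rps19bp1 was 61.7, 81.7 and 65.4 CPM in healthy lung at days 7, 14 and 21 and 39.9, 25.2 and 17.6 in tumour-bearing lung, without overlap (log2 fold change -1.14 ± 0.33, SE, adjusted p = 0.0458, edgeR). It lost its call without any 1 of the days, at -1.36 to -0.80. Rpl29, a large-subunit protein, was 375, 206 and 931 CPM in healthy spleen and 260, 4.44 and 78.0 in tumour-bearing spleen, which overlapped (-2.83 ± 0.72, SE, adjusted p = 0.0478, edgeR); without day 14 or day 21 it was not called. Differences of the tumour effect between tissues were called for no member by edgeR. Of all genes, 0% were called higher and 0% lower for scaffold minus lung, and 0.0179% and 0% for spleen minus lung. At an unadjusted p under 0.05 there were 2 and 3 members, without a share over all genes at that threshold. DESeq2 called none in either. Of 21 ribosome biogenesis genes, 3 were lower in tumour-bearing lung: Myc (-1.53 ± 0.34), the transcription factor that drives ribosome production, Rrp9 (-1.48 ± 0.40) and Gar1 (-1.48 ± 0.40, SE). None of 19 translation factors was called there, in scaffolds or in spleen.

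Within lineages the tumour comparison gave almost no calls. In neutrophils 1 of 81 members was higher, with 3.02% of 3407 genes called higher and 0.294% lower (8 pairs of libraries), and the median was 0.58 against 0.48 over all genes. That member was Rplp0, at 153, 188 and 599 CPM in healthy and 182, 637 and 588 in tumour-bearing lung at days 7, 14 and 21, and at 90.2, 553 and 205 against 212, 351 and 575 in scaffolds. In spleen it was 609 against 1127 at day 14 and 1352 against 1465 at day 21, so it was higher in 6 of 8 pairs, and the groups overlapped. Its log2 fold change was 1.35 ± 0.42 (SE, adjusted p = 0.0417, edgeR), and 0.66 with library totals alone (adjusted p = 0.516, edgeR). The scaling shifted all genes here: the median of all genes was 0.48 with TMM factors and -0.18 with library totals, and that of the members 0.58 and -0.10. With shared barcodes assigned 19 members were higher and none lower, without healthy lung and spleen of day 21 it was 4, and with any S100a8 UMI as the rule 4 were lower.

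In monocytes, macrophages, B cells and T cells edgeR called no member for the tumour. At an unadjusted p under 0.05 there were 13, 4, 2 and 8 members of 85, 86, 83 and 81, and DESeq2 called none. After adjustment the genes called higher and lower were 0.398% and 0.305% of all in monocytes, 0.257% and 0.0946% in macrophages, 0.192% and 0.0275% in B cells and 0.482% and 0% in T cells. Member medians were 0.23, 0.14, 0.02 and 0.11. They are given without the medians over all genes, so a shift of all genes by the scaling was not set apart. In monocytes the share was 13.0%, 12.5% and 10.7% in healthy lung and 12.3%, 13.5% and 12.6% in tumour-bearing lung, and 11.4%, 10.2% and 9.67% against 12.2%, 10.0% and 11.9% in scaffolds. In T cells of lung it was 21.3% and 21.6% in healthy and 24.8% and 23.8% in tumour-bearing mice at days 7 and 14. In T cells of spleen it was 19.9% and 24.8% against 22.1% and 24.6%, so the day 14 pair went the other way. Markers of other cells moved in these fits: in T cells 4 of 4 erythroid genes tested (median 4.17) and the neutrophil gene S100a9 (3.52 ± 0.47, SE) were higher with the tumour. Of the neutrophil list, 2 of 5 genes tested were higher in monocytes, 2 of 4 in macrophages and 1 of 3 in B cells, and their part in the result was not tested.

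Monocytes differed by tissue in their share. The 4 spleen libraries with enough monocytes lay at 14.3% to 19.8%, above the 6 lung libraries at 10.7% to 13.5% and the 6 scaffold libraries at 9.67% to 12.2%. Of the spleen libraries 3 were tumour-bearing and 1 healthy (15.7%, 38 cells), whereas lung and scaffold had 3 of each. Spleen monocytes were not tested against those of another tissue. Lung and scaffold overlapped, and between these edgeR called no member (5.33% of 7262 genes higher and 3.64% lower in scaffolds, 4 members at an unadjusted p under 0.05, DESeq2 3 lower). Macrophages of scaffold and lung had no member called (0% higher, 0.0582% lower, 12 at an unadjusted p under 0.05, DESeq2 none). The same held for spleen against lung in B cells (0.241% higher, 0.697% lower, 3 members at an unadjusted p under 0.05) and in T cells (0.0594% and 0.446%, 1 member), with none by DESeq2.

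Members called at day 21 against day 7 included paralogs or copies and core subunits, in shares near those of all genes. Of 88 members 9 were higher and 7 lower at day 21 over the 18 libraries, with 7.99% of all genes higher and 5.68% lower, and the medians were 0.06 and 0.04. Paralogs or copies made up 4 of the higher and 1 of the lower members, and the shares of members called lie near those of all genes. With library totals alone the split was 4 higher and 18 lower. At day 14 against day 7 edgeR called none (0.305% higher, 0.134% lower, 8 members at an unadjusted p under 0.05), and DESeq2 called 3 lower. The largest rises were those of Rpl10l (9.81 ± 0.44), Rpl39l (6.60 ± 0.87) and Rps3a3 (4.00 ± 0.65; log2 fold change ± SE), the first 2 of which are best known from testis. Rps3a2 fell by 2.14 on the log2 scale (SE 0.40). Core genes moved less: Rps14 (1.19 ± 0.28), Rps18 (1.09 ± 0.30) and Rps3 (0.79 ± 0.20) were higher, and Rpl26 (-1.29 ± 0.33), Rpl39 (-1.29 ± 0.30), Rpl21 (-0.95 ± 0.29) and Rps24 (-0.90 ± 0.23, SE) lower. With shared barcodes assigned Rps14 stood at -0.087, Rps18 at -0.059 and Rps3 at 0.013, and none of these was called. Markers of cell types moved in the main fit of day 21 against day 7. Of 5 B cell genes 4 were lower (median -2.97), of 6 T cell genes 2 (-2.13) and of 5 erythroid genes 4 (-3.74). Of 3 fibroblast genes 1 was higher (1.84). The part of cell content in the differences of members was not tested.

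Rpl10l was read at 702 CPM in healthy lung and 774 in healthy spleen at day 21, at 41.3 and 0.310 in healthy and tumour-bearing scaffolds, at 40.3 in tumour-bearing lung and at 26.8 in tumour-bearing spleen. At days 7 and 14 it was 0 in 11 of 12 libraries and 1.05 CPM in the other. Its 1047 UMIs fell to 1031 in day 21 cells whose barcode occurred in several libraries, 15 in the other day 21 cells and 1 at days 7 and 14, so that 98.5% lay in shared-barcode cells, which held 14.6% of all kept UMIs. For Rpl39l that share was 97.2%, and for Rps3a3 88.6%. The next members were Rps14 at 36.2% and Rpl29 at 36.1%, and the median over members was 17.8%.

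In healthy lung of day 21 Rpl39l was at 2005 CPM in the 794 shared-barcode cells and at 26.3 in the 235 others. In tumour-bearing lung it was at 772 and 3.89, and in tumour-bearing scaffolds at 15.5 and 2.04. Shared-barcode cells were higher in each of the 6 libraries for Rpl10l, Rpl39l and Rps3a3. Partner genes did not divide so: Rpl39 was at 822 CPM in shared-barcode and 671 in other cells of day 21, Rpl10 at 1734 and 633, and Rps3a1 at 982 and 539. Shared-barcode cells also had a higher total share of ribosomal protein UMIs, 12.7% against 6.79%, with medians of 447 and 1037 UMIs per cell. With each shared barcode assigned, Rpl10l no longer passed the filter on low counts, and Rpl39l stood at 1.28 (adjusted p = 0.304, edgeR) and Rps3a3 at -0.40 (adjusted p = 0.704, edgeR) for day 21 against day 7. Without healthy lung and spleen of day 21 Rpl10l, Rpl39l and Rps3a3 were still called, at 8.15, 5.28 and 2.94.

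**Figure D5:**
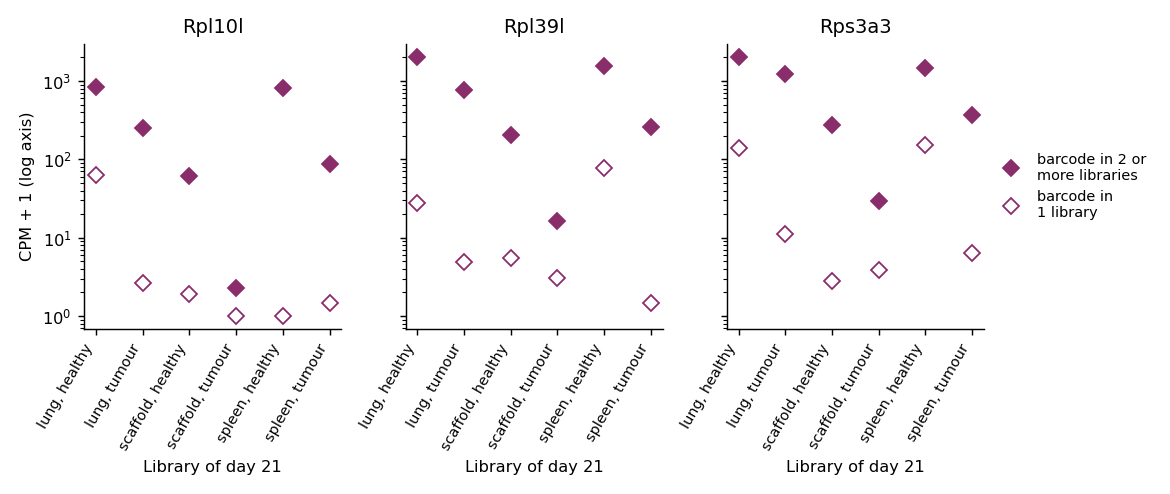
CPM + 1 of Rpl10l, Rpl39l and Rps3a3 (y axis, log scale) in each library of day 21 (x axis), in cells whose barcode occurs in 2 or more libraries of that day (filled) and in cells whose barcode occurs in 1 (open). The filled point is the higher in each of the 6 libraries for all 3 genes, up to 2025 CPM for Rps3a3 in healthy lung.

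The genes outside the set whose level over the 66 library and lineage sums was most like the summed share, among 3146 genes at a mean of 50 CPM or more, were Eef1b2 (Spearman's rho 0.901), Snrpg (0.890), Smc6 (0.890), Gm10260 (0.888) and Tmsb10 (0.879). Eef1b2 encodes an exchange factor of elongation factor 1 and Snrpg a core protein of the spliceosome. The most opposite were Tnfaip2 (-0.917), Litaf (-0.916), Gp49a (-0.886), Gabarap (-0.885) and Entpd1. Of the other genes 28 had a rho above 0.8, against 72 of 82 members, and the median over all genes compared was 0.122.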

How the data were processed

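The authors deposited 1 table of UMI counts per library, genes by cell barcodes, made by Drop-seq. The submitters' processing notes name mm10 and Seurat 2, and the aligner is not given in the sources used here. Barcodes with 200 or more genes and under 20% mitochondrial UMIs were kept, no doublets were removed, and raw counts were summed per library and per lineage (20 or more cells). Depth is given in the report; library totals limit the precision of low genes. The members and lists were chosen with earlier results of these data known.

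Sums were tested with edgeR 4.0.16 (TMM factors, quasi-likelihood test, Benjamini-Hochberg adjustment over all genes tested, threshold 0.05) in R 4.3.3, after its filter on low counts, and the code was tested on simulated data. Tumour and healthy libraries of 1 tissue and day were paired by a block, since the series describes healthy controls matched in time. Deviations of such pairs from their group means correlated at 0.207 to 0.668 over 8145 genes. Alternatives were library totals, DESeq2 1.42.0, no filter, no block, leaving out each day, shared barcodes assigned to the library with 5 or more times the UMIs of the next or to none, 400 genes per cell, leaving out healthy lung and spleen of day 21, counts without S100a8, S100a9 and mitochondrial genes, and a rule of exactly 1 of 5 markers.

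Named members were, per comparison, up to 8 called higher and 8 called lower with the largest change (for tumour comparisons with 1 direction in every pair), the 3 most abundant, the stalk genes, Rpsa, Rps19bp1 and fixed paralog pairs. Other genes came from fixed lists of translation factors, ribosome biogenesis and mitochondrial ribosomal proteins. UMIs count transcripts by their 3′ ends, so no length correction was made.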

Additional observations from a re-analysis of the deposited data

How the results depend on the processing

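The count of members called moved with the processing in most comparisons, and the cause was not tested. In tumour-bearing lung the 3 calls became 18 with library totals, 10 with DESeq2, 5 without a filter, 0 with shared barcodes assigned, 0 without healthy lung and spleen of day 21, and 0 to 2 without 1 day. In scaffolds the 1 call became 3 without a filter, 0 with DESeq2, shared barcodes assigned, 400 genes per cell or without those libraries, and 0 to 2 without 1 day. In spleen 2 became 5 without a filter, 1 with 400 genes, 0 with shared barcodes assigned or without those libraries, and 0 to 3 without 1 day. Without the replicate block, which pairs libraries of 1 tissue and day, the counts were 0 in lung, 0 in scaffolds and 0 in spleen, and B cells against monocytes went from 11 calls to 19; no other count moved by over 1.5 times without the block. For day 14 against day 7 the count was 3 with DESeq2, 1 without a filter and 3 without day 21. For day 21 against day 7 the 16 calls, 9 of them higher, became mostly lower with library totals (22), DESeq2 (27), no filter (19), shared barcodes assigned (7) and 400 genes (8), and were 6 without healthy lung and spleen of day 21 and 8 without day 14. With shared barcodes assigned Rps3a3 stood at -0.40, Rps14 at -0.087 and Rps18 at -0.059 there. Within neutrophils the 1 call for the tumour became 19 with shared barcodes assigned, 4 without those 2 libraries, 4 in the other direction with exactly 1 of 5 markers, and 0 with library totals, DESeq2, without S100a8, S100a9 and mitochondrial genes, or without any 1 day. Within B cells the tumour count was 1 without a filter and 0 to 1 without 1 day, and within T cells 0 to 5. Neutrophils against monocytes gave 83 calls, and 76 to 81 without 1 day, but with exactly 1 of 5 markers 3 were called, all higher; there Rpl10a stood at 0.30, Rplp1 at 0.30, Rplp2 at 0.26, Rpl22l1 at 0.13, Rpl41 at 0.12, Rps27 at 0.083 and Rpsa at 0.042. Rpl24 stood at -0.055 with library totals. Macrophages against monocytes gave 26 calls, and 53 with library totals, 16 with DESeq2, 44 without a filter, 0 with shared barcodes assigned, 1 with 400 genes and 5 to 11 without 1 day. B cells against monocytes gave 11, and 23 with library totals, 64 with DESeq2, 5 with shared barcodes assigned, 29 with 400 genes, 26 with exactly 1 of 5 markers and 3 to 23 without 1 day. B cells against T cells gave 2 with library totals and 9 with DESeq2. Between tissues, monocytes gave 2 with library totals and 3 with DESeq2, macrophages 11 without a filter and 2 without those 2 libraries, B cells 1 without a filter and 1 with exactly 1 of 5 markers, and T cells 0 to 1 without 1 day. The neutrophil share of 4.79% became 9.32% with exactly 1 of 5 markers and 3.36% to 5.81% without 1 day, and the B cell share of 18.6% became 20.9% without S100a8, S100a9 and mitochondrial genes. No value could be had for day comparisons without the block or without a day they compare, for macrophages between tissues with shared barcodes assigned or 400 genes, for neutrophils and tumour with 400 genes, or for T cells between tissues with exactly 1 of 5 markers.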
